A study of Triticum aestivum and Zea mays with 29 samples.

Results

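In sequenced reads, substitutions at 4 of 6 maize targets, and deletions at 4 of 6, differed at least 2-fold between 4 amplicon libraries. All 4 substitution differences held with counts scaled down to as few as 400 DNA templates per amplicon and library. At 2000 templates no deletion could be called, because every scaled count was 3 or fewer, too few for a ratio. The study's sequencing list gives no sample barcode for the 4 libraries. These libraries made up 4 of the 29 samples of a study that tuned Cas12a base editors in wheat and maize, and they were chosen because their tables give read counts per amplicon for a whole library rather than for an indexed sample. All 4 came from leaf mesophyll protoplasts of the maize inbred B104, isolated from seedlings moved to darkness, and held genomic DNA labelled only as treated with a Cas12a base editor. Each library was read at the same 6 amplicons. The labels give no editor version, crRNA set, dose, control or replicate status, so no library was assigned to an arm, and whether a library pools several transfections is not given in the sources used here. In the study's methods, transfected protoplasts were sorted on GFP, which marks cells that took up and expressed the plasmids, and 1000 to 5000 cells were lysed, of which 2 μl entered each PCR. None of the libraries is known to be an unedited control, so the percents below hold editing and any background of PCR and sequencing together.

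A Cas12a base editor joins a Cas12a protein that no longer cuts DNA to a deaminase, and a crRNA leads it to a target next to a T-rich PAM. An adenine deaminase makes inosine, which is read as guanine, and a cytosine deaminase makes uracil, which is read as thymine, so both appear in reads as substitutions. Insertions and deletions are the usual trace of a cut and its repair, and can also follow the removal of a deaminated base. The tables sort reads into these 3 kinds of change without naming the base or its position, so A-to-G and C-to-T changes could not be told apart.

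The 6 targets are shown because every comparison below is made at one of them. Each line gives the 4-base PAM in capitals and the 23-base spacer in lower case, 5′ to 3′, as designed by the study.
Zm-TS1: TTTAacacgggaaattacagcaggaga
Zm-TS3: TTTCggaaggcgcagatcgagtccgcg
Zm-TS4: TTTAtcgtacgtacgtaccatgcatgc
Zm-TS8: TTTAcatagcactagcacctgcttttg
Zm-TS9: TTTCccaaccatctcagagaacatgtc
Zm-TS10: TTTCtctggcctcctacatcgtacagc

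Zm-TS1 lies in fasciated ear3 (Zm00001d040130), which encodes a receptor-like protein that limits meristem size. Zm-TS3 lies in small kernel 1 (Zm00001d007100) and Zm-TS9 in empty pericarp 16 (Zm00001d011559), both genes for pentatricopeptide repeat proteins that act on mitochondrial transcripts and are needed for kernel growth. Zm-TS4 lies in liguleless2 (Zm00001d042777), a bZIP transcription factor gene needed for the ligule and auricle of the leaf. Zm-TS8 lies in dwarf4 (Zm00001d028325), named for a brassinosteroid C-22 hydroxylase, and Zm-TS10 in compact plant 2 (Zm00001d027886), the gene of a heterotrimeric G protein α subunit that limits meristem size. Chromosome positions and exon boundaries were not analysed here. The amplicons were 232 to 235 bp long, and the primers listed for each number matched both amplicon ends at 6 of 6 targets. The spacers held 4 to 10 adenines and 4 to 9 cytosines, with the most adenines in Zm-TS1 and the most cytosines in Zm-TS10. The spacer of Zm-TS4 repeated the unit CGTA 3 times in full within a 13-base run, and that of Zm-TS8 repeated TAGCAC 2 times within a 12-base run, whereas the longest such run in the other 4 spacers was 4 to 6 bases.

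Libraries were deep and similar in composition. Their aligned reads summed to 5295073, 5675612, 4863964 and 5396103 in libraries 1 to 4, and single amplicons held 474447 to 2117476 reads. Zm-TS4 took the largest share, 36.9 to 41.0% of each library, and Zm-TS8 8.96 to 11.1%. Percents are reads with a given kind of change over the column headed aligned reads. The column headed total reads was the smaller one in 24 of 24 amplicon and library entries and equalled modified plus unmodified reads in all 24, so these 2 headings may be exchanged. Taking total reads instead raised every percent above 0 by a factor of 1.01 to 1.03. Intervals on single percents are Wilson 95% intervals. They cover counting error only, because reads are PCR copies without molecular tags, and at most they were ±0.0885 percentage points for substitutions and ±0.00652 for deletions.

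Each amplicon and kind of change was compared over the 4 libraries with a chi-square test, replaced by a permutation of reads among libraries where an expected count fell under 5, and adjusted by Benjamini-Hochberg. A difference was called where the adjusted p was under 0.05 and the highest percent was at least 2 times the lowest, since at this depth almost any difference passes a test on reads. Such a test compares these libraries and not conditions. Of 17 testable combinations 8 were called (47.1%), namely 4 of 6 for substitutions, 4 of 6 for deletions and 0 of 5 for insertions. With the p-value alone 11 of 17 passed. Zm-TS4 and Zm-TS8 were called for substitutions and deletions, Zm-TS1 and Zm-TS3 for substitutions, and Zm-TS9 and Zm-TS10 for deletions.

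Substitutions made up nearly all modified reads. Reads with substitutions and no other change were 97.6 to 99.9% of the modified reads of an amplicon in a library. At liguleless2 (Zm-TS4) substitutions were found in 23.9% of reads in library 1, 24.4% in library 2, 6.87% in library 3 and 7.35% in library 4. Libraries 1 and 2 thus stood far above libraries 3 and 4, and the highest percent was 3.55 times the lowest (counting interval 3.53 to 3.58), the widest spread of substitutions among the 6 targets. At dwarf4 (Zm-TS8) the percents were 10.8, 8.33, 4.62 and 5.14% in libraries 1 to 4. Here library 1 was highest, 2.35 times library 3 (2.31 to 2.38), and library 2 lay between library 1 and the other two.

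At fasciated ear3 (Zm-TS1) substitutions were found in 9.53, 11.5, 5.29 and 5.31% of reads in libraries 1 to 4. Library 2 was 2.17 times library 3 (2.14 to 2.20), while library 3 minus library 4 was -0.0268 percentage points with an interval of -0.112 to 0.0589. At small kernel 1 (Zm-TS3) the percents were 6.50, 6.59, 3.10 and 3.23%. Its highest over lowest ratio of 2.12 (2.09 to 2.16) was close to the 2-fold limit, and library 1 minus library 2 was -0.0842 percentage points (-0.167 to -0.00119). In the comparison of pairs below, libraries 1 and 2 were not told apart here (adjusted p = 0.0818, Fisher's exact test).

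The remaining pair of targets were nearly level. At empty pericarp 16 (Zm-TS9) substitutions were found in 5.84, 5.91, 5.23 and 5.65% of reads in libraries 1 to 4, and library 2 exceeded library 3 by 0.684 percentage points (0.615 to 0.754), a ratio of 1.13. At compact plant 2 (Zm-TS10) the percents were 5.39, 4.97, 4.86 and 4.74%, and library 1 exceeded library 4 by 0.652 points (0.581 to 0.722), a ratio of 1.14. Both differences passed the test on reads (adjusted p = 1.16e-90 and 1.46e-79, chi-square) and both were below the size limit. A split of the libraries was nevertheless shared. At 6 of 6 targets libraries 1 and 2 had higher substitution percents than libraries 3 and 4. The order within each of these pairs varied between targets. The excess at Zm-TS9 and Zm-TS10 was a small part of the level that all 4 libraries had. With counts scaled to 10000 templates, the difference over libraries at these targets gave an adjusted p of 0.251 each (chi-square).

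**Figure D1:**
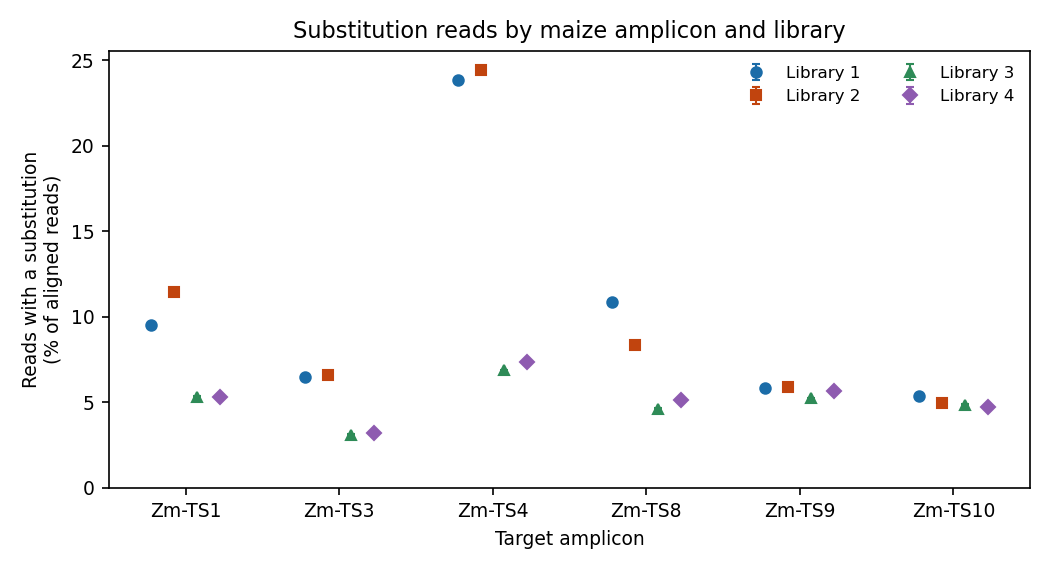
Reads with a substitution as percent of aligned reads (y axis, linear) at each maize target (x axis), one point per library with its Wilson 95% interval, which is mostly smaller than the point. At Zm-TS4 libraries 1 and 2 lie at 23.9 and 24.4% and libraries 3 and 4 at 6.87 and 7.35%, whereas at Zm-TS9 and Zm-TS10 all 4 lie between 4.74 and 5.91%.

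How many independent DNA templates lie behind these reads is not recorded. A scale of 10000 templates stands for 2 copies in each of 5000 sorted cells, before only 2 μl entered each PCR. A single sorted sample would thus give fewer. With counts scaled down to at most 10000, 2000 or 400 templates per amplicon and library, the call at Zm-TS4 held with adjusted p at most 1.2e-299, then 2.53e-94 and 2.07e-18 (chi-square). The weakest of the 4 calls, Zm-TS3, gave 6.52e-53, 3.07e-10 and 0.0329 on the same scales. The calls at Zm-TS1 and Zm-TS8 rested in part on 1 library each. Without library 2 the ratio at Zm-TS1 was 1.80, and without library 1 the ratio at Zm-TS8 was 1.80, both under the 2-fold limit.

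The order of targets within a library also changed. Zm-TS4 had the highest substitution percent in each of the 4 libraries, 2.20 and 2.13 times the next target in libraries 1 and 2 and 1.30 times in libraries 3 and 4. In library 1 the order below it was Zm-TS8, Zm-TS1, Zm-TS3, Zm-TS9 and Zm-TS10, and in library 2 only Zm-TS8 and Zm-TS1 exchanged places. In libraries 3 and 4 Zm-TS3 was lowest instead of Zm-TS10. From the highest to the lowest target the percents spanned 4.43-fold and 4.92-fold in libraries 1 and 2, against 2.21-fold and 2.28-fold in libraries 3 and 4.

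Deletions were rare, found in 0.00317 to 0.171% of reads. Libraries took the same order as for substitutions at Zm-TS3, where they were nearly level, and another order at the other 5 targets. At Zm-TS4 library 1 had 1519 deletion reads (0.0738%), library 2 had 1699 (0.0802%), library 3 had 3414 (0.171%) and library 4 had 1593 (0.0800%). Library 3 stood alone here, 2.32 times library 1 (counting interval 2.18 to 2.46, adjusted p = 7.66e-282, chi-square), while the other 3 lay within a factor of 1.09, and without library 3 the call was lost. At Zm-TS8 the deletion reads numbered 54, 79, 278 and 19 in libraries 1 to 4, or 0.0114, 0.0148, 0.0553 and 0.00317%. Library 3 was again highest, and its ratio to library 4 of 17.4 (10.96 to 29.4, adjusted p = 2.43e-89, chi-square) was the widest of any kind of change at these targets. It was 4.66 without library 3 and 4.86 without library 4, and called in both cases.

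Library 4 was highest at Zm-TS9. Deletion reads there numbered 272, 379, 318 and 801 in libraries 1 to 4, or 0.0317, 0.0393, 0.0432 and 0.0893%. Library 4 was 2.82 times library 1 (2.46 to 3.25, adjusted p = 2.88e-76, chi-square), and without it the ratio was 1.36 and no longer called. Zm-TS10 had the fewest deletions of the targets in 3 of 4 libraries, with 28, 43, 52 and 26 reads, or 0.00373, 0.00532, 0.00918 and 0.00359%. Library 3 was 2.56 times library 4 (1.57 to 4.27, adjusted p = 4.00e-05, chi-square), and without library 3 the ratio was 1.48 and no longer called.

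At Zm-TS1 deletions were found in 0.0360, 0.0339, 0.0437 and 0.0226% of reads, a ratio of 1.93 that passed the test on reads (adjusted p = 1.29e-07, chi-square) and missed the 2-fold limit. At Zm-TS3 the 4 libraries lay between 0.0391 and 0.0457% (223 to 318 reads), with a ratio of 1.17 (0.982 to 1.39, adjusted p = 0.326, chi-square). Zm-TS3, one of the targets at which substitutions were called, was thus the target with the narrowest spread in deletions.

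**Figure D2:**
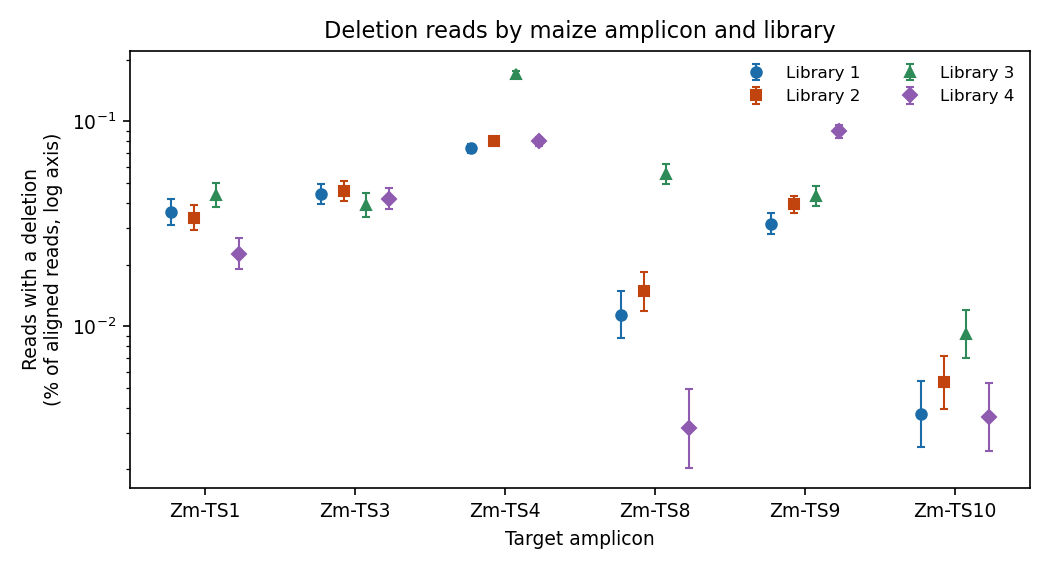
Reads with a deletion as percent of aligned reads (y axis, log scale) at each maize target (x axis), one point per library with its Wilson 95% interval. Library 3 lies highest at Zm-TS4 (0.171%) and Zm-TS8 (0.0553%), library 4 highest at Zm-TS9 (0.0893%) and lowest at Zm-TS8 (0.00317%).

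These deletion calls depended on treating reads as independent. At 10000 templates per amplicon and library 1 of the 4 deletion calls remained, that of Zm-TS8 (adjusted p = 0.0407, permutation of reads). Its ratio there was 2, exactly at the limit, because library 4 was rounded to 0 templates and then set at 3 counts. That call thus depended on the rounding and on this setting. Zm-TS10 had at most 0.918 deletion templates on this scale, so it could not be called. At 2000 templates no deletion could be called. Every scaled count was 3 or fewer, and no ratio was formed at such counts. Of the 5 combinations with any scaled deletion count, 0 had an unadjusted p under 0.05 (permutation of reads). At 2000 templates a percent of 0.0553 stands for about 1 template. The deletion differences therefore describe the sequenced reads, and their size among cells was not detectable at this number of templates.

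Insertions were close to absent, with 100 reads in all 24 amplicon and library entries together and 0 to 17 in any one. At Zm-TS8 0 insertion reads were found in each library. A bound of 3 counts stands for 0.000632, 0.000561, 0.000597 and 0.000501% in libraries 1 to 4. The upper Wilson limits were 0.000810, 0.000719, 0.000765 and 0.000642%. Zm-TS9 had 11, 8, 11 and 17 reads, and its libraries were not told apart (adjusted p = 0.293, chi-square). At Zm-TS4 the reads numbered 8, 1, 3 and 2, and the ratio of library 1 to library 2 was 8.23 with a counting interval of 1.10 to 365. Over all 4 libraries that target gave an adjusted p of 0.0505 by permutation of reads, and it was the 1 of 5 insertion combinations with an unadjusted p under 0.05. Insertion reads numbered 8, 3, 9 and 5 at Zm-TS1, 3, 0, 1 and 0 at Zm-TS3, and 2, 5, 1 and 2 at Zm-TS10.

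The 6 pairs of libraries were then compared at each target with Fisher's exact test, adjusted over 101 testable comparisons, with the same 2-fold limit, and 26 were called. Of the 36 substitution comparisons 12 were called, 3 targets in each of the pairs 1 and 3, 1 and 4, 2 and 3, and 2 and 4, and in all 12 the library numbered 1 or 2 was higher. Libraries 1 and 2 differed in substitutions by 1.01 to 1.30-fold and libraries 3 and 4 by 1.01 to 1.11-fold, with 0 of 6 targets called in either pair. By the p-value alone 4 and 5 of 6 targets differed in those pairs.

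For deletions the pairs fell differently. Of 36 deletion comparisons 13 were called, and the pair with the most was libraries 3 and 4, with 4 of 6 targets. Library 3 was higher at Zm-TS4, Zm-TS8 and Zm-TS10, and library 4 at Zm-TS9. Libraries 3 and 4, which were close in substitutions at every target, therefore differed in deletion reads at 4 of 6 targets. These comparisons treat reads as independent. With counts scaled to 10000 templates, 12 comparisons of all kinds were called in place of 26. Libraries 1 and 2 had 0 of 6 deletion targets called. The 1 insertion comparison called was that of libraries 1 and 2 at Zm-TS4.

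Reads that carried a deletion were examined for a substitution on the same read. The exact binomial 95% intervals given here cover counting error over PCR reads only. At 10000 templates per amplicon and library the deletion reads would stand for 7.38 to 17.1 templates at Zm-TS4 and at most 8.93 at any other target, so these shares describe reads, and whether they hold among templates was not tested. At Zm-TS4 the share of deletion reads with a substitution was below that of all reads in each library. The shares were 7.11, 6.42, 4.75 and 5.78% of deletion reads in libraries 1 to 4 (intervals 5.87 to 8.52%, 5.30 to 7.69%, 4.06 to 5.51% and 4.68 to 7.04%), against the 23.9, 24.4, 6.87 and 7.35% of all reads given above. Libraries 1 and 2 had the higher shares, as they had for substitutions over all reads.

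At Zm-TS8 the share among deletion reads was above that of all reads in 3 libraries. A substitution was present in 29 of 54 deletion reads in library 1 (53.7%, interval 39.6 to 67.4%), 21 of 79 in library 2 (26.6%, 17.3 to 37.7%) and 71 of 278 in library 3 (25.5%, 20.5 to 31.1%), against 10.8, 8.33 and 4.62% of all reads. In library 4 it was present in 0 of 19, an upper limit of 17.6% that includes the 5.14% of all reads. At Zm-TS9 the shares were 11.4, 12.7, 25.8 and 4.99% in libraries 1 to 4, so that library 4, which had the most deletions there, had the smallest share with a substitution. At Zm-TS1 they were 12.6, 16.5, 23.1 and 6.30%, with library 3 highest as at Zm-TS9. The interval included the percent of all reads in libraries 1 and 4 at Zm-TS1 and in library 4 at Zm-TS9. Shares were 3.14 to 6.49% at Zm-TS3 and 1.92 to 7.14% at Zm-TS10. Over all targets and libraries the interval lay above the percent of all reads in 9 of 24 entries and below it in 5. The study's methods name separate windows for base editing and for indels, and which of them these tables used is not given in the sources used here. What part the window has in these shares was not tested.

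**Figure D3:**
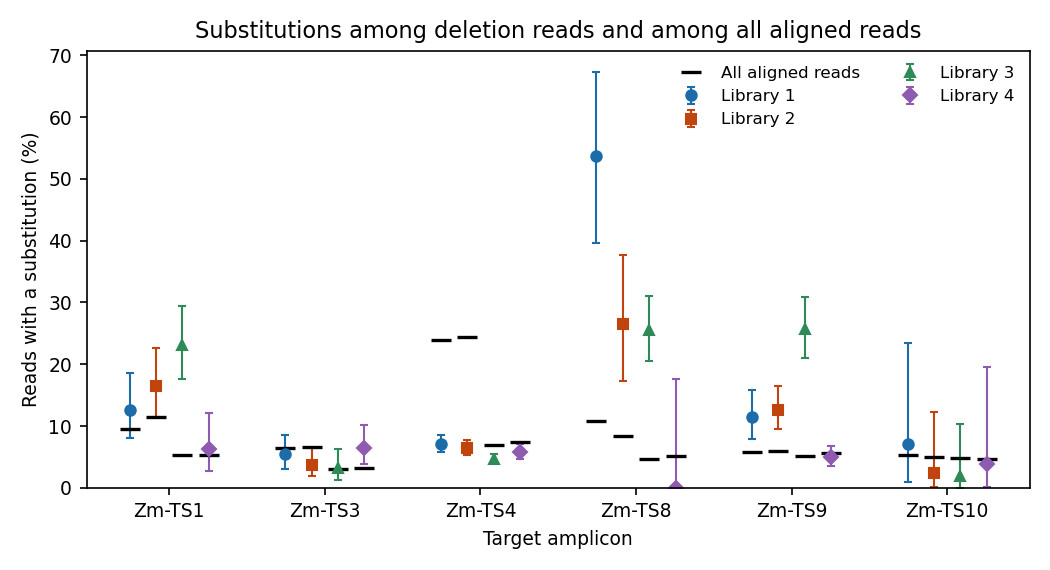
Percent of deletion reads that also carry a substitution (points, one per library, with exact binomial 95% intervals for counting error over reads) at each maize target, with the substitution percent of all aligned reads of the same library as a black bar. At Zm-TS4 all 4 points (4.75 to 7.11%) lie under their bars, and at Zm-TS8 the points of libraries 1 to 3 (53.7, 26.6 and 25.5%) lie above them.

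The 4 wheat libraries likewise listed without a barcode in the same study, read at 18 amplicons, give the spread of a second set, which is unlike the first. Wheat crRNAs were designed to match a single subgenome and to hold mismatches with the others. The wheat amplicons cover the copies of a target in different subgenomes and so include mismatched sites, whereas each maize amplicon holds its designed target. Under the same rule 7 of 51 testable combinations were called (13.7%), with 3 of 18 for substitutions, 4 of 18 for deletions and 0 of 15 for insertions. The 1 insertion combination with an adjusted p under 0.05 (chi-square) had a ratio of 1.75, below the 2-fold limit. The widest substitution ratio in wheat was 2.35 with a median of 1.19, where the maize targets had a widest ratio of 3.55 and a median of 2.15. The median ratio for deletions was 1.79 in wheat and 2.44 in maize. The arms of the wheat libraries are not labelled either, and the difference between the species was not tested.

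**Figure D4:**
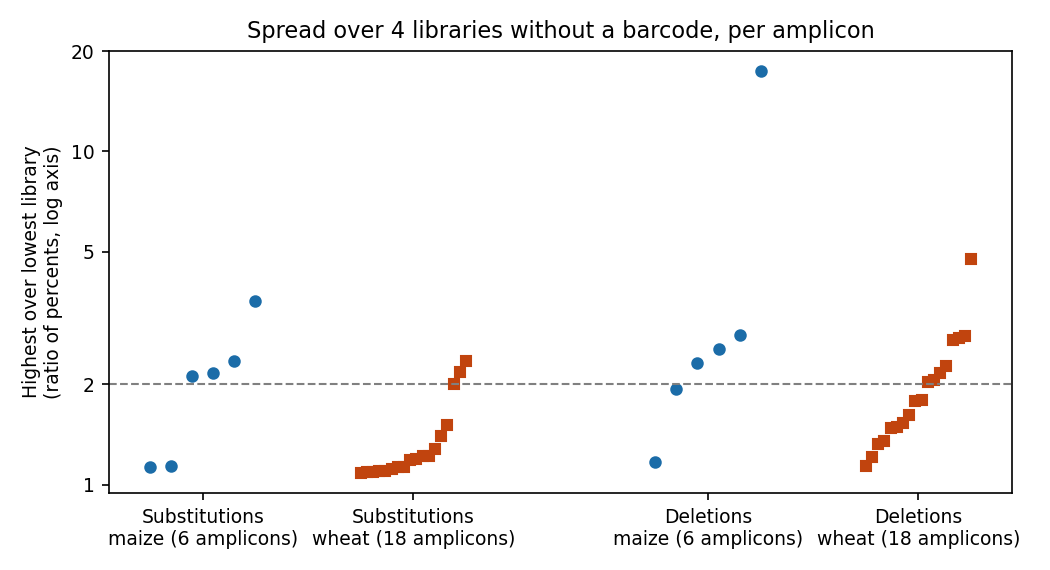
Highest over lowest percent among 4 libraries listed without a barcode (y axis, log scale) for each amplicon, for substitutions and deletions, in maize (6 amplicons) and wheat (18 amplicons); points are sorted by value and the dashed line is the 2-fold limit. For substitutions 4 of 6 maize amplicons and 3 of 18 wheat amplicons lie above the line.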

How the data were processed

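The 4 maize and 4 wheat tables hold counts of reads per amplicon that the authors made with CRISPResso2 from paired-end amplicon reads and deposited per library, with percent columns for modified and unmodified reads. The deposited percent of modified reads equals modified over total reads. Its software version is not given in the sources used here. The count of discarded reads was 0 throughout. Tables were matched to samples by the library name in the title, and amplicons to targets by number. Spacers come from the study's list of designed targets.

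Percents over aligned reads, chi-square tests, permutations of reads (100000 draws), Fisher's exact tests (two-sided) and intervals were computed with SciPy 1.17.1. Calls over the libraries for substitutions and deletions were tested on simulated reads drawn independently at these depths. That simulation cannot show how the calls behave when reads are PCR copies of few templates. Samples carry no group, so no mean or SD over libraries was formed. All 6 targets were named. Counts of 0 were bounded with 3 counts. Targets, limits and tests were chosen with earlier results of these data known. Alternatives were template numbers of 10000, 2000 and, added after seeing the data, 400, reads with 1 kind of change alone, total reads as denominator, limits of 1.5-fold and 3-fold, an exact test of the highest against the lowest library, and fits without 1 library at a time. The other 10 tables were not used here.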

Additional observations from a re-analysis of the deposited data

Results flagged for a closer look

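Of 17 amplicon and kind combinations with any reads in the maize libraries, 1 had a library far from the other 3 by Dixon's criterion. It was the deletion percent at Zm-TS4 in library 3, 0.171% against 0.0802% in the next library, a gap of 0.934 of the whole range. Chance alone flags about 1 in 20 such sets, and library 3 was not called apart from library 4 in substitutions at this target.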

How the results depend on the processing

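The called counts depended on the number of independent templates assumed and on the size limit. In place of 8 called combinations in maize (4 for deletions), 26 pairs and 7 wheat combinations, scaling to 10000 templates gave 5 in maize (1 for deletions), 12 pairs and 3 in wheat. Scaling to 2000 gave 4 (0 for deletions), 12 and 3, and scaling to 400, a number chosen after seeing the data, gave 4 (0 for deletions), 8 and 0. On both of these scales no maize deletion could be called, since every scaled deletion count was 3 or fewer. All 4 substitution calls in maize held on each scale. With a 3-fold limit 2 maize combinations remained (1 for substitutions, 1 for deletions), with 10 pairs and 1 in wheat, and with a 1.5-fold limit wheat had 12. Total reads as denominator added 1 insertion call, Zm-TS4. Reads with 1 kind of change alone and Fisher's exact test of the highest against the lowest library left these counts within 1.5 times. Leaving out each library in turn gave 7 to 8 maize combinations, 0 to 1 for insertions and 2 to 4 for deletions (2 without library 3), 5 to 6 in wheat, and 11 to 15 called pairs among the fewer pairs left. No paired analysis was possible because no library has a group. With arms and replicate status unknown and no named control, differences between arms, between transfections and between library preparations cannot be told apart.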
